A study of Mus musculus with 2 samples.

Results

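Zic2, Zic5, Pou3f1, Sall1 and Sall3 are 5 of the 32285 genes measured in nuclei of mouse embryos at embryonic day 7.0. They were chosen by gene symbol, and 104 of the 229480 accessibility peaks overlapped the 50 kb to either side of their transcription starts. Nuclear RNA and open chromatin had been read from the same nuclei, as 2 samples with 1 library for each assay. Embryos were pooled before dissociation, so no nucleus could be traced to an embryo, no replicate exists and no test was run. Every interval below is at 95% and covers counting error only. The labels gave no genotype or treatment. Their title, age and protocol gave embryonic day 7.0, whereas other entries gave gut as tissue, goblet cells as cell type and RedMUC298trTg as strain. Embryonic marker lists were abundant: 8 epiblast markers summed to 3067 counts per 1000000 (CPM) in epiblast-like nuclei, where 8 goblet and intestinal markers summed to 7.75 CPM. The goblet and intestinal sum was higher in visceral endoderm-like nuclei (85.4 CPM) and in nuclei left unnamed (87.7 CPM).

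The epiblast is the founder tissue of the embryo proper. During gastrulation its cells leave through the primitive streak to form mesoderm and definitive endoderm, while the cells that stay in front contribute to ectoderm, including the future brain. Zic2 and Zic5 encode zinc finger factors needed for normal neural tube development. Pou3f1 encodes a POU-domain factor that promotes neural fate in epiblast cells. Sall1 and Sall3 encode zinc finger repressors, and SALL proteins recruit the NuRD chromatin complex, which removes acetyl groups from histones.

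Of the kept nuclei, 12796 in all, the median held 10471 RNA molecules counted by unique molecular identifier (UMIs) and 17350 peak counts. RNA was read in classes drawn from accessibility clusters, and accessibility in classes drawn from RNA clusters, so the nuclei in a cluster were not grouped by the readout taken from them. Marker RNA named the clusters of both assays. Of 10596 nuclei named by both assays, 84.5% carried the same name. A class is called "-like" for that reason. No cluster was named anterior ectoderm-like. Its 7 markers summed to 33.8 CPM in epiblast-like nuclei and 73.0 CPM in extraembryonic ectoderm-like nuclei. The sum was 41.7 CPM in the class of anterior streak, node and definitive endoderm. Six3 alone gave 26.4 CPM of it, against 3.50 in epiblast-like nuclei. Hesx1 was also higher in that class (4.86 against 1.85 CPM), whereas Sox3, Lhx2, Lhx5 and Rax were lower. Sox3 alone gave 25.1 CPM of the epiblast-like sum and 71.4 CPM of the extraembryonic ectoderm-like sum. Hesx1, Six3, Lhx2, Lhx5 and Rax were each lower in extraembryonic ectoderm-like than in epiblast-like nuclei. Position in the embryo was not recorded. Whether these 5 genes are anterior ectoderm factors could therefore not be tested here. Of the 5, only Zic5 was highest in the epiblast-like class.

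By the files, on mm10 (coordinates as in GRCm38), Zic2 (ENSMUSG00000061524) starts at chromosome 14 position 122475435 and Zic5 (ENSMUSG00000041703) at 122465677. They lie 9758 bp apart and are transcribed away from each other, so all 24 peaks near Zic2 were also among the 26 near Zic5. Pou3f1 (ENSMUSG00000090125) starts at chromosome 4 position 124656807, 839 bp upstream of its RefSeq start, with 32 peaks. Sall1 (ENSMUSG00000031665) starts at chromosome 8 position 89044162, with 28 peaks. Sall3 (ENSMUSG00000024565) had 18 peaks. All peaks but 1 near Sall3 reached 50 estimated fragments, leaving 103. The 5 genes gave 7608 (Sall1) to 21559 (Pou3f1) UMIs over the kept nuclei.

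RefSeq promoter windows on GRCm38.p6 were matched for 2 of the 5 genes, Zic5 and Sall1. They are shown because they differ in whether open chromatin covers them. Each line is the 250 bases upstream of a start on the minus strand, 5′ to 3′, with CpG dinucleotides in capitals.
Zic5, chr14:122465659-122465908: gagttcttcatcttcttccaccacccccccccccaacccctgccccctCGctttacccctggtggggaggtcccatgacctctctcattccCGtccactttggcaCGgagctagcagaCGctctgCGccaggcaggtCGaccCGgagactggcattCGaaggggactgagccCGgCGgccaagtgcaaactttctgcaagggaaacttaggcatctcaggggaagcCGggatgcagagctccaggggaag
Sall1, outermost start, chr8:89044163-89044412: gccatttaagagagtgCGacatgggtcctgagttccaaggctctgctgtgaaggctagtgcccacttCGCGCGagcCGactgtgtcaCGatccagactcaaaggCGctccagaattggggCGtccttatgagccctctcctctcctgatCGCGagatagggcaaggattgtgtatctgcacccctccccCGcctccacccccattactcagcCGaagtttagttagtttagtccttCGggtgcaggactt

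RefSeq lists 2 further Sall1 starts, at 89043512 and 89042862. The stretch around the most upstream GC box (GGGCGG on either strand, in capitals) in the 250 bases before each is shown because open chromatin covers both.
Sall1, start at 89043512: cttgctctccacCCGCCCggagcttggcgg
Sall1, start at 89042862: gcccgggatggaGGGCGGgggaggggggag
With the 50 bases after the start included, each window had 300 bases. A peak covered all 300 bases of the Zic5 window and of both inner Sall1 windows, and 0 bases of the outermost Sall1 window. GC content was 62.7% for Zic5 with 15 CpG, and 57.3%, 70.0% and 79.7% for the Sall1 windows from the outermost inwards, with 18, 27 and 39 CpG. The medians over 32851 mouse windows were 52.7% and 7.0 CpG. GC boxes numbered 1 at Zic5 and 0, 4 and 1 at the Sall1 starts in the same order, and 35.7% of all windows held one. Motifs searched on both strands after the sequences had been seen were the POU octamer ATGCAAAT (in 1.74% of all windows), CAGCAGG for ZIC (10.5%), AACAAAG for SOX (5.85%), TATAAA (13.6%) and CCAAT (37.4%). The 4 windows held none of these letters apart from 1 CCAAT at the outermost Sall1 start.

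Across classes the genes separated into differing patterns. Zic5 was highest in epiblast-like nuclei, Pou3f1 in extraembryonic ectoderm-like nuclei, and Zic2 and Sall1 in the class of anterior streak, node and definitive endoderm. Sall3 was about equally high in primitive streak-like, embryonic mesoderm-like and haemato-endothelial progenitor-like nuclei. The classes rest on 3661 epiblast-like, 1090 primitive streak-like, 1800 embryonic mesoderm-like, 946 anterior streak-like, 392 haemato-endothelial, 944 extraembryonic ectoderm-like, 648 ectoplacental cone and giant cell-like and 1571 visceral endoderm-like nuclei. A parietal endoderm-like class of 26 nuclei was too small to order. A further 1718 nuclei stayed unnamed.

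**Figure D1:**
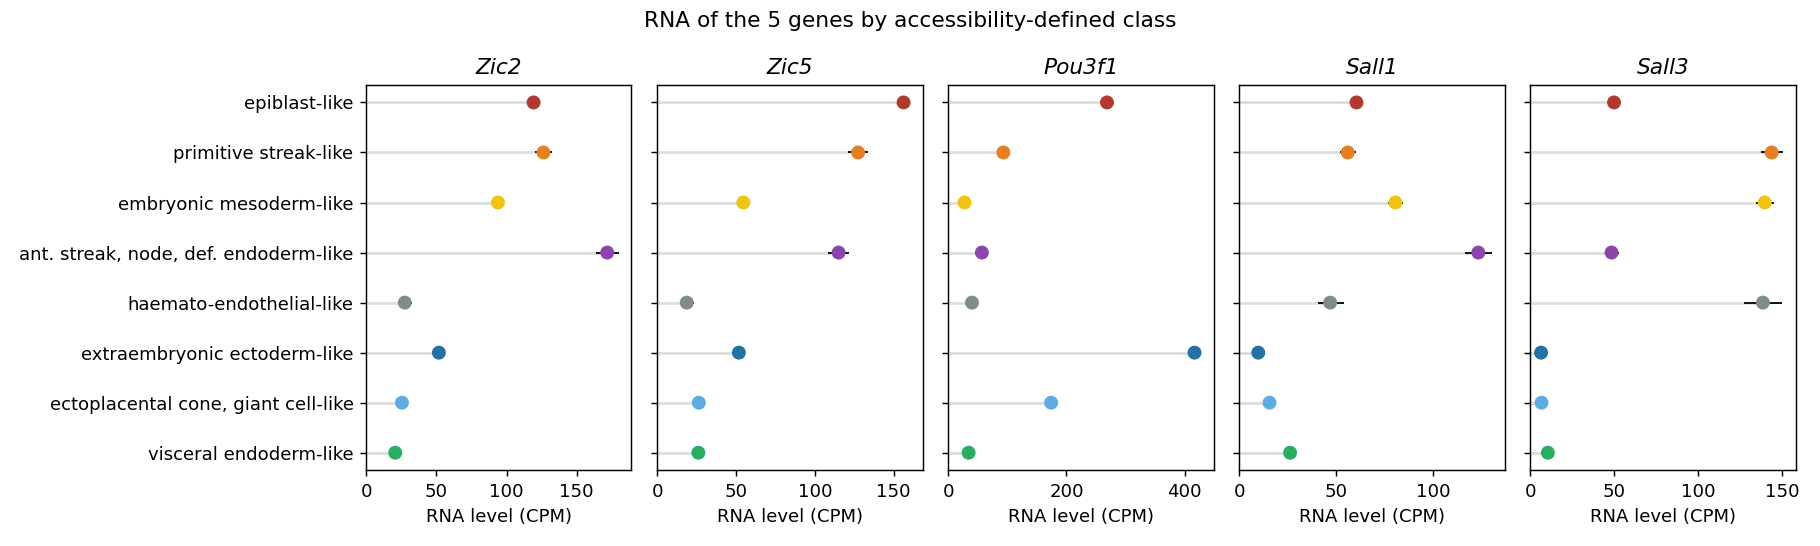
RNA level of each gene (horizontal axis, CPM of summed UMIs) in 8 accessibility-defined classes (rows). Points are class levels and black bars their exact Poisson 95% intervals, for counting error only. Zic5 peaks in the epiblast-like row at 156 CPM and Pou3f1 in the extraembryonic ectoderm-like row at 417 CPM, while Sall3 has its 3 highest points, 139 to 144 CPM, in the streak, mesoderm and haemato-endothelial rows.

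The RNA level of Zic5 was 156 CPM (152 to 160) in epiblast-like nuclei, 127 in primitive streak-like, 115 in anterior streak-like, 54.6 in embryonic mesoderm-like and 51.8 in extraembryonic ectoderm-like nuclei. It was 26.4 CPM in the ectoplacental cone class, 26.1 in visceral endoderm-like and 18.7 in haemato-endothelial nuclei. Embryonic mesoderm against extraembryonic ectoderm, and ectoplacental cone against visceral endoderm, did not differ beyond counting error. The first of these calls did not hold under 7 alternatives. There the mesoderm level ran from 0.362 to 0.505 of the epiblast-like one, and the extraembryonic ectoderm level from 0.283 to 0.336. Zic5 was 2.86-fold higher (2.76 to 2.97) in epiblast-like nuclei than in all others.

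Zic2, its divergent neighbour, stood at 172 CPM (164 to 180) in anterior streak-like nuclei, 126 in primitive streak-like, 119 (116 to 123) in epiblast-like, 93.9 in embryonic mesoderm-like and 51.8 in extraembryonic ectoderm-like nuclei. It fell to 27.5 CPM in haemato-endothelial, 25.5 in ectoplacental cone and 20.6 in visceral endoderm-like nuclei. The anterior streak-like level was 1.44-fold the epiblast-like one (1.36 to 1.52). Primitive streak-like and epiblast-like nuclei did not differ beyond counting error (1.06-fold, 0.99987 to 1.12), nor did haemato-endothelial and ectoplacental cone nuclei. With the 5 genes and their peaks left out of the clustering, the first of these ratios was 1.22. Against all other nuclei, Zic2 was 1.75-fold higher in the epiblast-like class (1.69 to 1.82).

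The balance of the Zic pair moved with class. Zic2 made up 43.3% of the UMIs of both genes in epiblast-like nuclei (exact binomial interval 42.3 to 44.2) and 49.8% in primitive streak-like nuclei (48.0 to 51.5). It made up 59.9% in anterior streak-like (58.1 to 61.7) and 63.2% in embryonic mesoderm-like nuclei (61.5 to 65.0). In mesoderm, Zic5 was at 0.349 of its epiblast-like level (0.327 to 0.373) and Zic2 at 0.787 (0.745 to 0.831). Under 7 alternatives these ratios ran from 0.362 to 0.505 for Zic5 and from 0.792 to 0.974 for Zic2, all above the values just given. The highest, 0.505 and 0.974, came with doublet calls kept, where Zic5 was no longer 2-fold lower.

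Pou3f1 RNA was 417 CPM (406 to 428) in extraembryonic ectoderm-like nuclei, 269 (263 to 274) in epiblast-like and 174 (165 to 183) in ectoplacental cone nuclei. It was 93.1 CPM in primitive streak-like, 56.8 in anterior streak-like, 40.0 in haemato-endothelial, 34.4 in visceral endoderm-like and 27.4 in embryonic mesoderm-like nuclei. Haemato-endothelial and visceral endoderm-like nuclei did not differ beyond counting error. Epiblast-like nuclei were 2.56-fold above all others (2.49 to 2.63) and 2.88-fold above primitive streak-like nuclei (2.72 to 3.07). The embryonic mesoderm-like level was 0.102 of the epiblast-like one (0.0935 to 0.111), and 0.188 with doublet calls kept. The extraembryonic ectoderm-like level was 1.55-fold the epiblast-like one (1.50 to 1.60). That class carried its own defining markers: Elf5, a trophoblast factor, stood at 219.8 CPM there against 8.69 in epiblast-like nuclei, and Esrrb at 198 against 4.36. The epiblast factor Pou5f1 stood at 44.9 against 205 CPM, near its visceral endoderm-like level of 45.1. The 8 epiblast markers summed to 1282 CPM in that class, of which their part in the Pou3f1 level was not tested.

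Sall1 RNA was 123 CPM (117 to 130) in anterior streak-like, 80.6 in embryonic mesoderm-like, 60.5 (58.0 to 63.0) in epiblast-like, 56.0 in primitive streak-like and 46.9 in haemato-endothelial nuclei. It was 26.2 CPM in visceral endoderm-like, 15.6 in ectoplacental cone and 9.77 in extraembryonic ectoderm-like nuclei. Epiblast-like and primitive streak-like nuclei did not differ beyond counting error. The anterior streak-like level was 2.04-fold the epiblast-like one (1.90 to 2.19), and the epiblast-like class stood 1.23-fold above all other nuclei (1.17 to 1.29). In the 26 parietal endoderm-like nuclei, 27 UMIs gave 79.9 CPM (52.6 to 116).

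Sall3 starts between 80986536 and 80986771 on chromosome 18. Its RNA was 144 CPM (137 to 151) in primitive streak-like, 140 (135 to 145) in embryonic mesoderm-like and 139 (128 to 150.2) in haemato-endothelial nuclei. These 3 classes did not differ beyond counting error. It was 49.8 CPM (47.6 to 52.1) in epiblast-like and 48.4 in anterior streak-like nuclei, which did not differ either. Under 7 alternatives the ratio of the anterior streak-like to the epiblast-like level ran from 0.887 to 1.29. Visceral endoderm-like nuclei had 10.4 CPM, ectoplacental cone 6.59 and extraembryonic ectoderm-like 6.35. Primitive streak-like nuclei stood 2.89-fold above epiblast-like nuclei (2.71 to 3.08). Sall3 was the only one of the 5 genes below all other nuclei in the epiblast-like class, at 0.858-fold (0.815 to 0.904).

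With 2-fold as the line, 2 of the 5 genes, Zic5 and Pou3f1, were higher in epiblast-like nuclei and 0 were lower, where 8.63% of 17686 tested genes were higher and 13.0% lower. Against the epiblast-like class, 1 gene (Sall3) was 2-fold or more higher and 1 (Pou3f1) lower in primitive streak-like nuclei, where the shares over all genes were 3.36% and 4.83%. In embryonic mesoderm-like nuclei 1 (Sall3) was higher and 2 (Zic5, Pou3f1) lower, where the shares were 8.49% and 11.7%, and Zic5 was not among the lower ones with doublet calls kept. In anterior streak-like nuclei 1 (Sall1) was higher and 1 (Pou3f1) lower, against 7.96% and 8.33%. In haemato-endothelial nuclei 1 (Sall3) was higher and 3 (Zic2, Zic5, Pou3f1) lower, against 11.1% and 16.3%. In extraembryonic ectoderm-like nuclei 0 were higher and 4 lower, all but Pou3f1, against 10.7% and 23.8%. In visceral endoderm-like nuclei all 5 were lower, from 0.128 of the epiblast-like level for Pou3f1 to 0.433 for Sall1. There 23.6% of all genes were lower and 15.3% higher. Pou3f1 was thus lower in each of the 4 classes around the streak and mesoderm, and also in visceral endoderm-like nuclei.

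By the share of nuclei with a UMI, all 5 genes were higher in epiblast-like than in visceral endoderm-like nuclei. After each nucleus was thinned to 5000 UMIs, 66.7% of 3278 epiblast-like nuclei had a Pou3f1 UMI, 51.6% Zic5, 43.9% Zic2, 24.9% Sall1 and 18.1% Sall3. The shares in 1429 visceral endoderm-like nuclei, taken as the background, were 14.1%, 8.75%, 7.07%, 11.3% and 3.50%. Unthinned, the epiblast-like shares were 79.2%, 69.9%, 62.8%, 41.4% and 28.3% at a median of 9844 UMIs, and the visceral endoderm-like shares 28.5%, 21.6%, 19.2%, 25.7% and 8.47% at 12045. Thinned shares below that background are not read as expression, and a fold against such a class is no exact value. Among the 8 ordered classes they were Sall1 in extraembryonic ectoderm-like (5.02%) and ectoplacental cone nuclei (6.35%), Sall3 in the same classes (2.29% and 2.18%), Pou3f1 in embryonic mesoderm-like (12.4%) and Zic5 in haemato-endothelial nuclei (7.04%). For Sall1 the extraembryonic ectoderm-like interval (3.70% to 6.64%) lay wholly below the visceral endoderm-like one (9.67% to 13.0%). The visceral endoderm-like share is therefore not the floor for that gene. The place of the listed shares below the background was not stable for 3 of the genes. Thinned to 3000 UMIs, Sall3 had 2.57% in extraembryonic ectoderm-like and 2.22% in visceral endoderm-like nuclei, and Zic5 had 5.87% in haemato-endothelial and 5.38% in visceral endoderm-like nuclei. Without a shallow cluster the visceral endoderm-like level was 4.60 CPM for Sall3 against 6.35 in extraembryonic ectoderm and 6.59 in ectoplacental cone, 17.4 for Zic5 against 18.7 in haemato-endothelial nuclei, and 24.9 for Pou3f1 against 27.4 in embryonic mesoderm. In epiblast-like nuclei the count of nuclei with 2 of the genes was set beside that given by their separate shares. Over 10 pairs the count of nuclei with both, divided by the product of the shares, ran from 0.864 (Pou3f1 with Sall3) to 1.06 (Zic2 with Sall3), and 5.92% of the nuclei had no UMI of any of the 5. Pou3f1 with Sall3 was seen in 342 epiblast-like nuclei, where the shares give 396. The ratio of this pair was 0.838 in primitive streak-like and 0.786 in anterior streak-like nuclei, but 1.02 in embryonic mesoderm-like nuclei. In embryonic mesoderm-like nuclei, Zic2 and Zic5 had the highest of the 10 ratios, 1.32.

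Within the epiblast the genes varied unequally. The class held 4 accessibility clusters, numbered 0, 4, 8 and 10. Sall3 RNA was 82.4 CPM in cluster 0, 35.5 in 4, 30.4 in 8 and 59.0 in 10, a 2.71-fold range (2.39 to 3.07). Pou3f1 ran the other way, at 194 CPM in cluster 0 against 303, 287 and 295 in the others, a 1.56-fold range (1.48 to 1.66). The ranges of Zic2, Zic5 and Sall1 were 1.21-fold, 1.22-fold and 1.24-fold. Cluster 0 also had the highest sum of the 7 primitive streak markers, 275.5 CPM against 100.05 in cluster 4, 95.4 in 8 and 88.0 in 10, while the primitive streak-like cluster had 550.4. Cluster 10, second for Sall3, had the lowest of these sums, so the order of Sall3 did not follow the streak markers beyond cluster 0. Cluster 0 was shallow in accessibility, with a median of 4799 peak counts against 15312.5 to 29606, and the part of that depth in its levels was not tested. In 2 embryonic mesoderm-like clusters, Sall3 was 165 CPM in cluster 9 and 121 in cluster 3, Zic2 was 120 and 75.1, and Zic5 was 76.5 and 38.5. Sall1 was 95.9 and 69.4 CPM, and Pou3f1 31.0 and 24.8. The Pou3f1 intervals overlapped (27.4 to 35.0 and 22.0 to 27.8). Such overlap does not show equal levels, so no call is made for Pou3f1. Streak markers summed to 738 and 371 CPM in the same order, and epiblast markers to 804 and 545 CPM. Extraembryonic mesoderm markers summed to 99.05 and 348 CPM, and haemato-endothelial markers to 128 and 300 CPM. The cluster higher for streak markers was thus higher for Zic2, Zic5, Sall1 and Sall3, but it differed in these other lists too. The part of each in the levels was not tested.

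**Figure D2:**
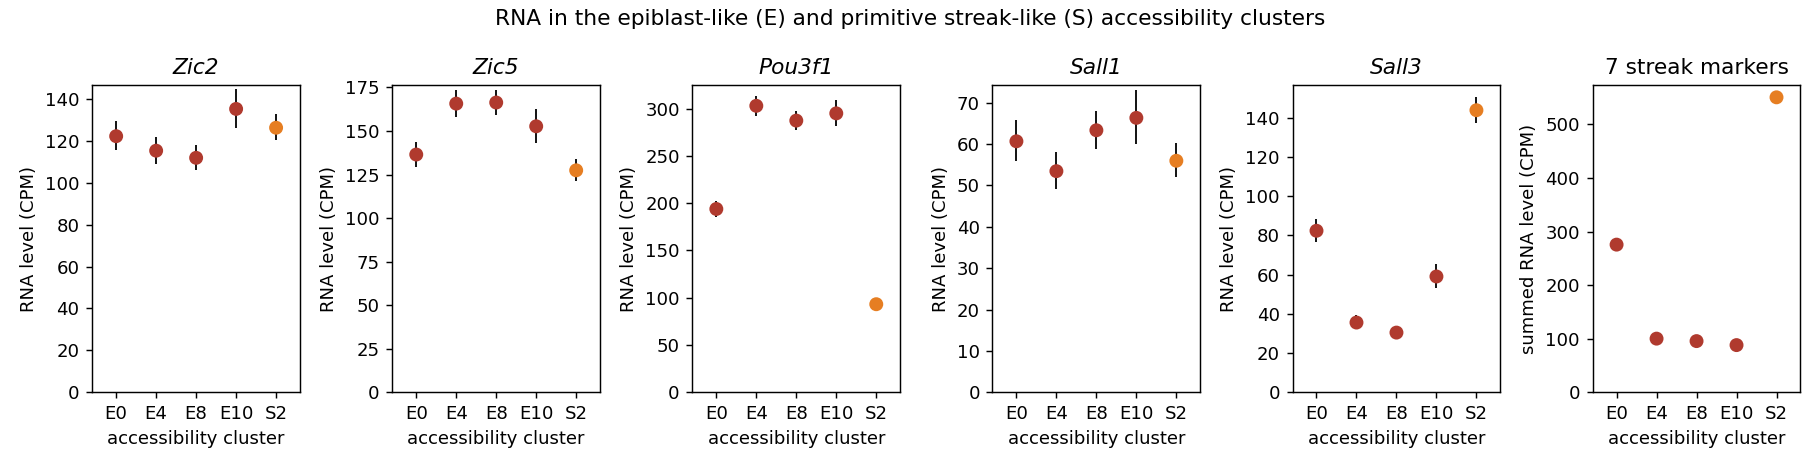
RNA level (vertical axes, CPM) of each gene in the 4 epiblast-like clusters (E0, E4, E8, E10) and the primitive streak-like cluster (S2), with the summed level of 7 streak markers at the right. Bars are exact Poisson 95% intervals. Sall3 and the streak markers are higher in E0 than in E4, E8 and E10, and Pou3f1 is lower there at 194 CPM.

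Cluster 0 and 2 others, 1 visceral endoderm-like and 1 unnamed, had median peak counts under the overall median divided by 3. Without these 3 clusters, 2 genes were still 2-fold or more higher in epiblast-like nuclei. Primitive streak-like nuclei then stood 3.74-fold above epiblast-like nuclei for Sall3 (3.47 to 4.03) and 1.07-fold for Zic2 (1.01 to 1.13), the latter now beyond counting error. Visceral endoderm-like levels fell to 24.9 CPM for Pou3f1, now below the interval of haemato-endothelial nuclei (34.2 to 46.5), and to 17.4 CPM for Zic5, now below that of ectoplacental cone nuclei (22.9 to 30.2). The anterior streak-like level of Sall3 became 1.26-fold the epiblast-like one (1.13 to 1.40). For Pou3f1, the extraembryonic ectoderm-like level was 1.41-fold the epiblast-like one (1.37 to 1.46).

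Accessibility was read from peak counts as CPM, in classes drawn from RNA. These held 3789 epiblast-like, 996 primitive streak-like, 1381 embryonic mesoderm-like, 907 anterior streak-like and 718 haemato-endothelial nuclei. A further 1088 were extraembryonic ectoderm-like, 461 ectoplacental cone and giant cell-like and 1645 visceral endoderm-like. Of the 103 peaks near the 5 genes, 15 were 2-fold or more higher in epiblast-like nuclei (14.6%, against 11.2% of all 224946 peaks) and 18 were 2-fold or more lower (17.5%, against 21.1%). Their median log2 fold was 0.15, and that of all peaks 0.01. By gene, the counts higher and lower were 4 and 4 of 24 for Zic2, 5 and 4 of 26 for Zic5, 6 and 4 of 32 for Pou3f1, 1 and 8 of 28 for Sall1, and 3 and 2 of 17 for Sall3. Between primitive streak-like and epiblast-like nuclei, 3 of the 103 peaks were 2-fold or more higher and 7 lower, where the shares over all peaks were 6.23% and 8.74%.

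**Figure D3:**
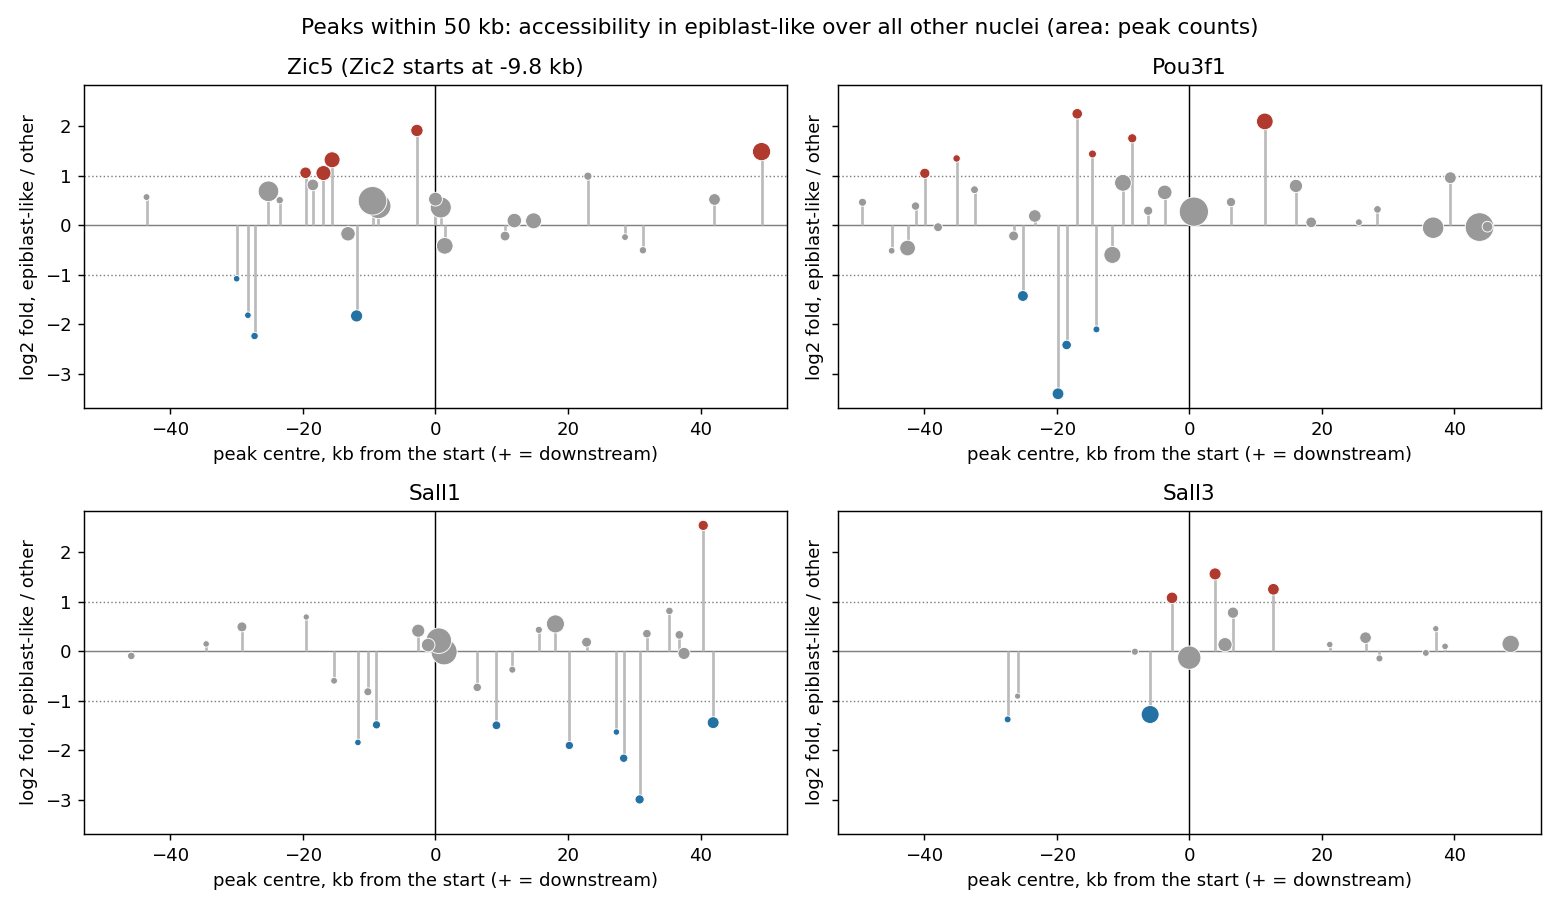
Each point is a peak within 50 kb, placed by the distance of its centre from the gene's start (horizontal axis, kb) and by its log2 fold in epiblast-like over all other nuclei (vertical axis), with area growing with its counts. Red and blue points lie 2-fold or more higher or lower (dotted lines). Pou3f1 has both kinds within 20 kb upstream, from the peak at -16.9 kb (4.77-fold) to that at -19.8 kb (0.0948-fold), and the large start-site peaks lie near 0.

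Near Pou3f1, open regions in the epiblast and in the trophoblast lay side by side. The peak centred 11.4 kb downstream (chr4:124667792-124668638) had 28.9 CPM in epiblast-like nuclei, 17.9 in primitive streak-like, 8.25 in embryonic mesoderm-like and 1.11 in extraembryonic ectoderm-like nuclei. Its epiblast-like level exceeded that of all others 4.29-fold (3.87 to 4.76). The peak 16.9 kb upstream (chr4:124639512-124640382) had 10.0 CPM in epiblast-like and 0.579 in extraembryonic ectoderm-like nuclei, 4.77-fold above all others (3.98 to 5.73). Another, 8.6 kb upstream, was 3.39-fold higher (2.74 to 4.19). Next to these, the peak 19.8 kb upstream (chr4:124636492-124637425) had 49.0 CPM in extraembryonic ectoderm-like and 28.0 in ectoplacental cone nuclei against 0.794 in epiblast-like nuclei, a fold of 0.0948 against all others (0.0643 to 0.135). The peak 18.5 kb upstream had 26.0, 10.7 and 0.879 CPM in the same classes. Chosen after their values were seen, peaks 25.1 kb and 42.5 kb upstream had 29.6 and 35.1 CPM in extraembryonic ectoderm-like nuclei against 2.30 and 9.42 in epiblast-like nuclei. Between the 2 classes with the most Pou3f1 RNA, 6 of the 32 peaks were 2-fold or more higher in extraembryonic ectoderm-like nuclei and 8 lower, where the shares over all peaks were 14.0% and 38.1%. These counts do not set the locus apart from other peaks, and the peaks described above are its extremes.

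In the Zic locus, the peak between the genes, 7.0 kb upstream of Zic2 and 2.8 kb upstream of Zic5 (chr14:122468030-122468910), had 13.8 CPM in epiblast-like, 7.01 in primitive streak-like, 4.95 in embryonic mesoderm-like and 4.56 in anterior streak-like nuclei. Its epiblast-like level exceeded that of all others 3.78-fold (3.29 to 4.35). A peak 5.9 kb downstream of the Zic2 start (chr14:122480883-122481697) had 21.0 CPM in epiblast-like, 16.8 in primitive streak-like and 1.19 in visceral endoderm-like nuclei, a 2.51-fold difference from all others (2.26 to 2.78). The peak 49.2 kb downstream of the Zic5 start had 29.7 CPM in epiblast-like, 21.5 in primitive streak-like and 31.7 in extraembryonic ectoderm-like nuclei, but 4.84 in embryonic mesoderm-like nuclei. Inside Zic2, 2.1 kb after its start (chr14:122477132-122477990), the order was different: 2.37 CPM in epiblast-like, 4.93 in primitive streak-like, 14.3 in embryonic mesoderm-like and 15.4 in anterior streak-like nuclei, 0.282-fold against all others (0.224 to 0.351). The peak 9.8 kb downstream of the Zic2 start had 8.998 CPM in epiblast-like and 4.31 in all other nuclei, 2.09-fold (1.81 to 2.42). The peak 17.5 kb downstream was at 0.439 CPM there against 6.60 in visceral endoderm-like nuclei, 0.213-fold against all others (0.121 to 0.351). The peak with most counts, centred 0.3 kb upstream of the Zic2 start, had 53.2 CPM in epiblast-like and 37.7 in all other nuclei, 1.41-fold (1.33 to 1.49). A peak 14.8 kb downstream of Zic5, chosen after its values were seen, had 32.3 CPM in anterior streak-like and 12.8 in epiblast-like nuclei.

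Near Sall3, the peak 5.9 kb upstream (chr18:80992225-80993145) had 52.6 CPM in embryonic mesoderm-like, 41.0 in haemato-endothelial, 26.0 in primitive streak-like, 12.1 in anterior streak-like, 8.03 in epiblast-like and 1.26 in visceral endoderm-like nuclei. The 3 classes with most Sall3 RNA were the 3 most open at this peak, which stood at 0.412-fold in epiblast-like nuclei (0.365 to 0.464). It was 1 of the 2 peaks with the lowest such fold, an extreme of the locus. Against epiblast-like nuclei, 1 of 17 Sall3 peaks was 2-fold or more higher in primitive streak-like nuclei (6.23% of all peaks) and 1 lower (8.74%). In embryonic mesoderm-like nuclei 3 were higher (14.9%) and 1 lower (14.9%). In haemato-endothelial nuclei 3 were higher (16.6%) and 4 lower (22.2%). The counts of higher peaks are near the shares over all peaks. Other peaks were higher in epiblast-like nuclei: 3.9 kb downstream at 2.95-fold (2.55 to 3.41), 12.7 kb downstream at 2.38-fold and 2.6 kb upstream at 2.11-fold. The 3.9 kb peak had 11.8 CPM in epiblast-like and 11.0 in primitive streak-like nuclei, against 0.421 in extraembryonic ectoderm-like nuclei. The start peak, which had most counts, was at 26.3 CPM in epiblast-like and 28.8 in all other nuclei, and the peak 27.4 kb upstream at 0.385-fold (0.233 to 0.610).

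Near Sall1, 1 peak was 2-fold or more higher in epiblast-like nuclei. It lay 40.4 kb downstream of the start (chr8:89003369-89004079), with 9.86 CPM in epiblast-like, 1.93 in primitive streak-like and 3.37 in visceral endoderm-like nuclei, a 5.82-fold difference from all others (4.82 to 7.05). The next highest folds were 1.76 (1.32 to 2.34) at 35.3 kb downstream and 1.61 (1.03 to 2.50) at 19.5 kb upstream. The peak with most counts, 1.3 kb downstream, was at 35.0 CPM in epiblast-like and 35.3 in all other nuclei. The 2 with the lowest folds, 30.8 kb and 28.4 kb downstream, were at 18.5 and 6.64 CPM in visceral endoderm-like nuclei against 0.538 and 0.694 in epiblast-like nuclei. Against epiblast-like nuclei, 7 of 28 Sall1 peaks were 2-fold or more higher in embryonic mesoderm-like nuclei (14.9% of all peaks) and 7 in anterior streak-like nuclei (15.6%). Lower in these classes were 3 (14.9%) and 2 (12.9%). In visceral endoderm-like nuclei, where Sall1 RNA was 0.433 of the epiblast-like level, 7 were likewise higher (16.9%) and 9 lower (38.9%). In extraembryonic ectoderm-like nuclei, where RNA of both Sall genes was low, 22 of 28 Sall1 peaks and 13 of 17 Sall3 peaks were 2-fold or more lower (38.1% of all peaks).

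**Figure D4:**
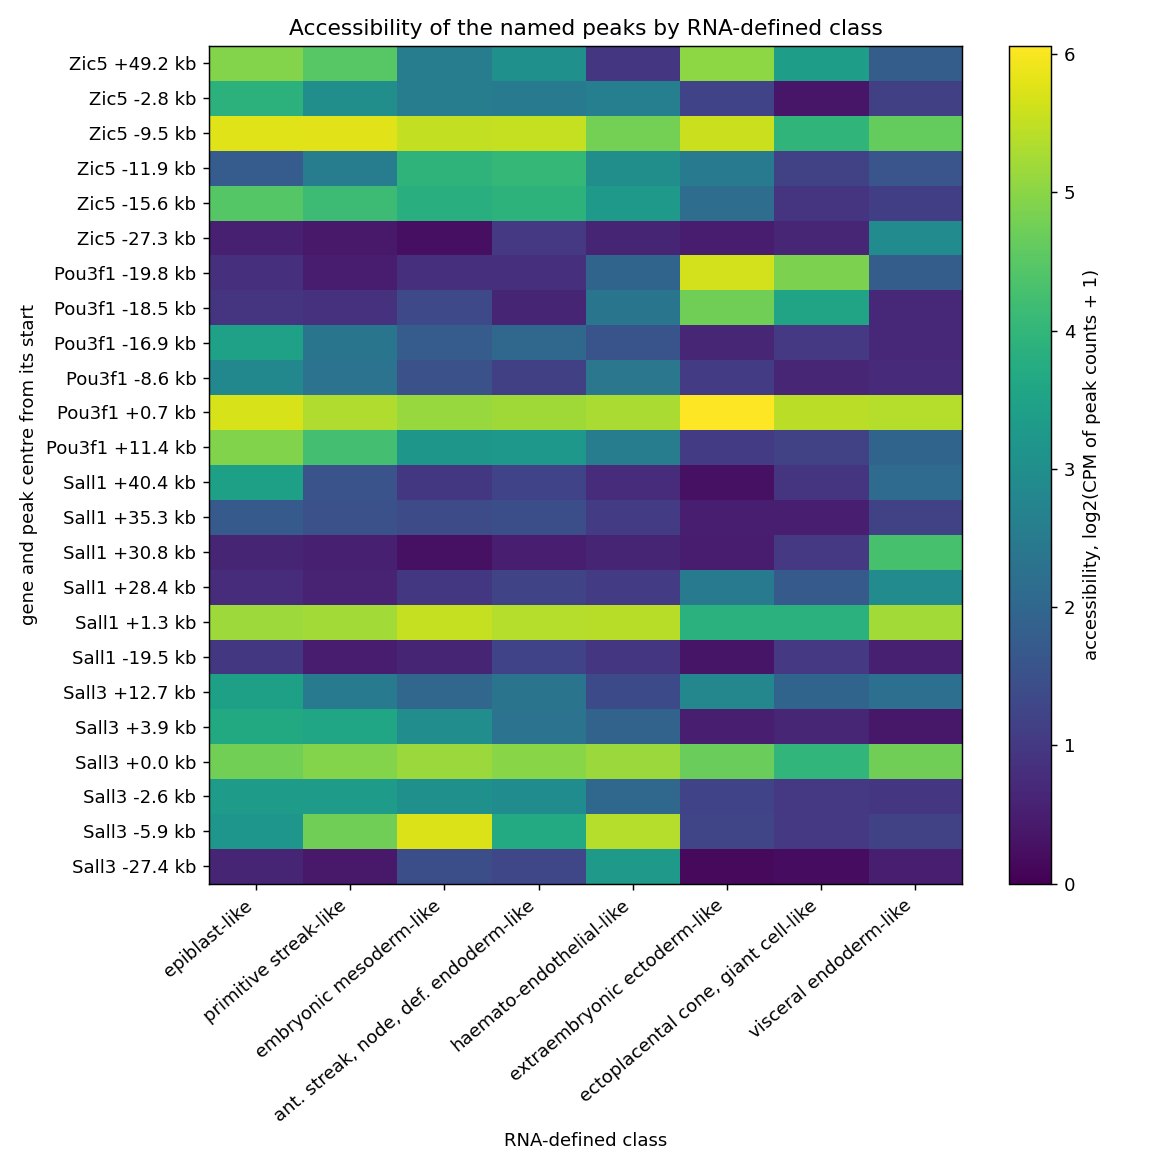
Accessibility (colour, log2 of CPM + 1) of peaks named by rule in 8 RNA-defined classes (columns). Rows give the gene and the distance of the peak centre from its start. In the Zic locus only the peaks named for Zic5 are drawn, so the peak 9.8 kb downstream of Zic2 is absent. The Pou3f1 peaks at -19.8 and -18.5 kb are bright in the trophoblast columns and those at -16.9 and +11.4 kb in the epiblast-like column, and the Sall3 peak at -5.9 kb is brightest in the mesoderm column at 52.6 CPM.

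Start sites were read as summed peaks. From 1000 bp upstream to 100 bp downstream, summed promoter accessibility in epiblast-like nuclei over all others was 1.37-fold for Zic2, 1.44-fold for Zic5, 1.09-fold for Sall1 (0.957 to 1.24, within counting error) and 0.914-fold for Sall3. Neither Zic promoter was more open in epiblast-like than in primitive streak-like nuclei. For Zic2 the primitive streak-like level was 93.5 against 91.7 CPM (1.02-fold, 0.951 to 1.09). For Zic5 it was 13.7 against 11.3 CPM (1.21-fold, 1.003 to 1.45). Pou3f1 had no peak in that window, since its start in the files lies 839 bp upstream of the RefSeq start. The peak that holds the RefSeq start, centred 0.7 kb downstream (chr4:124657067-124657904), had 50.6 CPM in epiblast-like and 41.7 in all other nuclei, 1.21-fold (1.15 to 1.28). Summing peaks within 2000 bp of the starts, the highest of 8 classes exceeded the lowest 1.93-fold for Pou3f1, 2.12-fold for Zic5, 2.31-fold for Sall3, and 3.41-fold for Zic2 and Sall1. For Pou3f1 the most open class was extraembryonic ectoderm-like (65.6 CPM) and the least embryonic mesoderm-like (34.0). Sall1 start peaks summed to 81.3 CPM in epiblast-like and 98.4 in embryonic mesoderm-like nuclei, but 29.8 in extraembryonic ectoderm-like nuclei. In epiblast-like over all other nuclei, the folds within 2000 bp were 1.25 for Zic2, 1.13 for Zic5 and 1.07 for Sall1 (1.03 to 1.12). In the narrower window the Sall1 value rests on 1 peak, at 8.97 CPM in epiblast-like nuclei. That peak does not cover the outermost start, and the inner Sall1 starts lie outside that window.

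**Figure D5:**
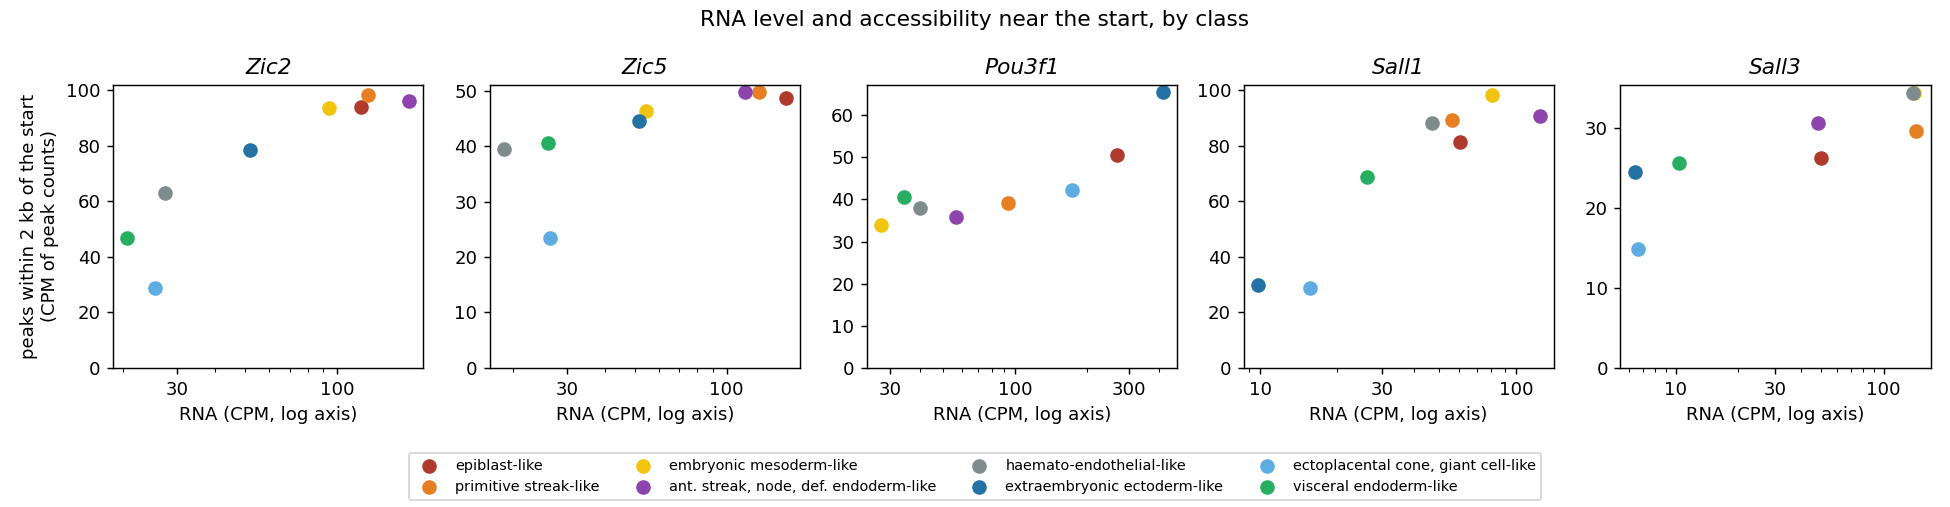
RNA level (horizontal log axis, CPM, accessibility-defined classes) against accessibility of the peaks within 2 kb of the start (vertical axis, CPM of peak counts, RNA-defined classes), 1 point for each of 8 classes. For Sall3 the start peak is open in classes low in RNA, with 24.5 CPM in extraembryonic ectoderm-like nuclei, where its RNA is 6.35 CPM, and 26.3 CPM in epiblast-like nuclei.

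Over 16 accessibility clusters of at least 50 nuclei, which share 1 library, Pearson correlations of log2(CPM + 1) describe which genes resembled each other, among 12306 genes. Zic2 and Zic5 had r = 0.90 and Sall1 and Sall3 r = 0.74, whereas Pou3f1 and Sall1 had r = -0.27. The 5 genes most like Zic2 were Ina (0.95), Socs2, Galnt16, Rtn2 and Tgif1, the last a repressor linked to forebrain development. Those most like Zic5 were Clip3 (0.97), Gpr85, Creld1, Gsta4 and Sfrp2, a secreted WNT modulator. For Pou3f1 they were Sox2 (0.98), a pluripotency and neural factor also expressed in trophoblast, Map6, Mkrn1, Utf1 and Dnajc21. Utf1 was one of the epiblast markers used for naming. Sox2 had 131 CPM in extraembryonic ectoderm-like, 75.9 in epiblast-like and 12.6 in visceral endoderm-like nuclei. For Sall1 they were Pdzrn3 (0.95), Baz2b, Epha7, Zfp827 and Mex3a, of which 0 were among its 5 highest by Spearman correlation, and for Sall3 Rxrg (0.96), Gm27239, Ccnd2, Trps1 and Gjc1.

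Relatives of the 5 genes had folds on both sides of 1. Over all tested genes, 8.63% were 2-fold or more higher in epiblast-like nuclei and 13.0% lower. In epiblast-like over all other nuclei, Sall2 was 5.86-fold higher and Sall4, a pluripotency factor, 1.09-fold. Among 6 tested relatives of the hedgehog mediators GLI, Gli2 (2.58-fold) and Gli3 (2.03-fold) were higher, and Glis1 (0.237-fold) and Glis3 (0.39-fold) lower. Among POU genes, Pou2f2 was 4.34-fold higher and, outside the naming rule, Pou5f1 2.42-fold, which is one of the epiblast markers that named the class. Of 7 tested SOX partners of POU factors 4 were higher, Sox14 (4.37-fold on 64 UMIs), Sox11 (2.44-fold) and, outside the naming rule, Sox12 (2.21-fold) and Sox2 (2.15-fold), and Sox21 was lower (0.131-fold). None of 13 NuRD components passed 2-fold either way. They ran from Chd3 (0.676-fold) and Mta3 (0.677-fold) to Rbbp4 (1.25-fold) and Mta1 (1.40-fold). Median log2 folds were -0.47 for GLI, 1.34 for SALL, 1.10 for SOX and -0.12 for NuRD genes, against -0.05 over all genes.

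Further lists held genes of the 2 poles of the epiblast, against the same shares over all genes of 8.63% higher and 13.0% lower. Of 16 tested anterior ectoderm and forebrain genes, 4 were 2-fold or more higher in epiblast-like nuclei and 5 lower, with a median log2 fold of 0.03 and Hesx1, Meis2 and Cdh2 among the lower ones. The eye and forebrain factor Pax6 was 5.68-fold higher on 112 UMIs and Sfrp2 3.21-fold. Outside the naming rule, Rax (2.59-fold) and Otx2 (2.08-fold) were the other two. By contrast, Irx3 was at 0.223-fold and Cyp26c1, a retinoic acid degrading enzyme, at 0.217-fold. Of 14 tested posterior epiblast and streak genes, 0 were higher and 8 lower, with a median of -1.11. Sp8 (1.32-fold) and Nodal (1.30-fold) had the highest folds of that list, and the WNT target Sp5 (0.293-fold) and Cdx2 (0.228-fold) the lowest. Several posterior genes were among the streak markers that named the other classes, so their direction is not independent of the naming.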

How the data were processed

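The deposited values were raw counts: UMI counts per gene and counts per peak, in 1 matrix of 15341 barcodes. The submitters' processing notes name Cell Ranger ARC 2.0.0 and mm10, and strand use in counting is not given in the sources used here. All barcodes carried 1 suffix. Of nonzero peak values 86.4% were even, so accessibility intervals used estimated fragments (the count divided by 2, rounded up).

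Kept nuclei had 1000 or more UMIs, 500 or more genes, 1000 or more peak counts, and mitochondrial UMIs of 20% or less. Scrublet calls (1153 barcodes, 7.52%) were removed. Each assay was clustered alone (scanpy 1.11.5, leidenalg 0.10.2, 30 components, resolution 1), giving 20 RNA and 18 accessibility clusters. Clusters were named from 15 marker lists, none holding the 5 genes, although Pou3f1 and Sall3 were among the 2000 variable genes. The genes, lists and naming rule were chosen with earlier results of these data known.

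Levels are summed counts per 1000000 in a class, with exact Poisson intervals. Folds have intervals from the exact binomial. Genes needed 50 UMIs and peaks 50 estimated fragments. By rule, the text names the 5 genes, the 5 genes most correlated with each, the 2 highest and 2 lowest of each list, and for each gene the peak with most counts and the 3 highest and 2 lowest peaks by fold. Some results of the related gene lists are not reported here. Interval and fold calculations were tested on simulated data. Alternatives changed depth limits, doublet removal, resolution, components, class source, windows and minimums.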

Additional observations from a re-analysis of the deposited data

How the results depend on the processing

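No analysis paired across samples or embryos was possible, because each assay is 1 library and no groups of samples were compared. Levels of RNA and accessibility were not compared nucleus by nucleus. Across 121 alternative values, 93 stayed close to the value in the text and 28 moved beyond counting error or, for counts, by over 1.5 times. The count of genes 2-fold or more higher in epiblast-like nuclei stayed at 2 under every alternative run. The fold over all other nuclei ranged from 2.55 to 3.06 for Zic5, 2.33 to 2.72 for Pou3f1, 1.62 to 1.82 for Zic2, 1.17 to 1.21 for Sall1 and 0.633 to 0.966 for Sall3. Peaks 2-fold or more higher numbered 11 to 17, and lower 17 to 19, over the 103 or 104 peaks within 50 kb. The lowest, 11 of 103 with the 5 genes and their peaks left out of the clustering, is a share under the 11.2% of all peaks given in the text. Within 20 kb they numbered 11 and 12 of 58. Promoter folds above 1 numbered 3 or 4 of the genes with a peak in the window, Sall1 included. The Sall1 interval holds 1 in the narrower window (0.957 to 1.24) but not within 2000 bp (1.03 to 1.12). The Sall3 promoter crossed from 0.914-fold to 1.02-fold by the share of nuclei with a count, which was not matched for depth. Ranking by Spearman correlation kept 9 of the 25 genes named as most similar (4 for Pou3f1, 2 for Zic5, 2 for Sall3, 1 for Zic2 and 0 for Sall1), and the cause was not tested. Leaving out unnamed nuclei and leaving out shallow clusters were chosen after seeing the data.

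The highest class stayed the same for Zic2, Zic5, Pou3f1 and Sall1 under 7 alternatives to the filter and clustering, and alternated between primitive streak-like and embryonic mesoderm-like for Sall3. With doublet calls kept, the ratio of embryonic mesoderm-like to epiblast-like RNA moved from 0.349 to 0.505 for Zic5 and from 0.102 to 0.188 for Pou3f1. The 1 library for each assay leaves the spread between embryos unmeasured. In the parietal endoderm-like class, 26 nuclei gave 2 Zic2 UMIs.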

Other observations

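Transcripts that start beside the genes followed part of their pattern. Gm2164 starts 362 bp from Pou3f1 and had 51.5 CPM in epiblast-like, 20.6 in primitive streak-like, 25.2 in extraembryonic ectoderm-like and 2.63 in embryonic mesoderm-like nuclei. Unlike Pou3f1, it was higher in epiblast-like than in extraembryonic ectoderm-like nuclei. Gm27239 starts 685 bp from Sall3 and had 14.3 CPM in embryonic mesoderm-like, 11.1 in primitive streak-like, 11.1 in haemato-endothelial and 4.07 in epiblast-like nuclei. It was also among the 5 genes most correlated with Sall3. 2610035F20Rik starts 236 bp from Zic2 and had 14.3 CPM in epiblast-like, 9.61 in anterior streak-like and 1.43 in extraembryonic ectoderm-like nuclei. Since the use of strand in counting is not stated, reads of these neighbours and of the 5 genes cannot be fully told apart.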
